A study of Ananas comosus with 3 samples.

Results

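Aquaporins on the pineapple cDNA array were represented by 5 of the 9278 spotted elements. They were the elements whose deposited description contained aquaporin, intrinsic protein or water channel, and they fell into 3 contigs (assembled EST sequences). Contig 2337 was carried by elements JBW086H02, JBW091E12 and JBW100H03, and contig 1411 by JBW054G05. Both contigs were described as plasma membrane intrinsic protein. Contig 2996, carried by JBW100E07, was described only as aquaporin. A further set of files, which held newly sequenced clones, gave these contig numbers to no further clone (0 newly numbered elements in each). No element description on the array contained tonoplast (0 elements), so the plasma membrane type could be set only beside the unclassified contig 2996 and not beside a tonoplast type.

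The study set mature yellow beside mature green fruits of field-grown Smooth Cayenne pineapple (Clone C10), with RNA taken from the flesh of the middle of the fruit. Each of 3 slides received labeled cDNA of both stages at once. Yellow fruit cDNA carried Cy3 on replicates 1 and 3 and Cy5 on replicate 2, the dye swap. The number of fruits behind each hybridization, and whether the slides share RNA extracts, are not given in the sources used here, so the SDs and p-values cover the spread between slides, which may be technical. In such bulk flesh, fewer cells of a type and less RNA per cell cannot be told apart.

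Aquaporins are channel proteins that let water, and in some members other small neutral molecules, pass through a membrane along its gradient. In plants, plasma membrane intrinsic proteins (PIPs) control the entry of water into the cell, and tonoplast intrinsic proteins (TIPs) its passage into the vacuole, where flesh cells of a fruit store water, sugars and acids. Genes of the PIP family are close in sequence, and a spotted cDNA can bind the transcripts of several of them. How far this affected the spots was not tested.

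Every slide carried each aquaporin element as a pair of duplicate spots, which gave 10 spots a slide. Signal was weak on the whole array. The median element spot lay 31.0, 67.0 and 27.9 intensity units above its local background in the yellow fruit channel of replicates 1, 2 and 3, and 27.0, 116 and 15.8 units above it in the green fruit channel. A spot was taken as above the blanks if either channel exceeded the blank spots of its slide by 2 robust SD, which held for 83.4%, 92.2% and 83.8% of all element spots. It held for 10, 10 and 8 of the 10 aquaporin spots on replicates 1, 2 and 3. A stricter limit set by the authors was a 2-fold standard deviation (2xSD) test, whose formula is not given in the sources used here. It kept 4, 6 and 2 of the aquaporin spots, against 29.1%, 33.4% and 23.1% of all element spots. Log2 ratios correlated across all features with r = 0.41 between replicates 1 and 2, 0.67 between 1 and 3 and 0.37 between 2 and 3. Keywords for flesh (bromelain, a protease of the fruit, and metallothionein) found 5 features with means from -3.57 to 0.44, of which 1 bromelain contig was called by limma. The keywords chosen for photosynthetic tissue and for cuticle matched 0 features, and those tissues were not followed here by other genes. The part of tissue makeup in the aquaporin ratios was not tested.

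The aquaporin spots were read first as net signal, the spot minus its local background. JBW054G05 of contig 1411 had mean net signals of 187 (yellow) and 247 (green) on replicate 1, 220 and 302 on replicate 2, and 69.4 and 50.7 on replicate 3. The green channel was the brighter one on replicates 1 and 2 and the yellow channel on replicate 3. One of its 6 spots was marked abnormal, on replicate 2, and was left out of the ratios.

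JBW091E12 of contig 2337 had mean net signals of 131 (yellow) and 126 (green) on replicate 1, 246 and 862 on replicate 2, and 136 and 86.2 on replicate 3. It was the only aquaporin element with all 6 spots past the 2xSD test. On the dye swap its 2 green spots read 965 and 759, against 283 and 209 in yellow. The gap between the channels there was far larger than that between duplicate spots. It mixes dye with stage, and the median element spot of that slide also read higher in green, at 116 against 67.0. For JBW086H02 the mean net signals were 49.5 and 64.0, 174 and 231, and 74.2 and 54.6. For JBW100H03 they were 47.0 and 81.5, 144 and 269, and 0.53 and 2.03. JBW100H03 thus had next to no signal on replicate 3, where 1 of its 2 spots was above the blanks.

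JBW100E07, the element of contig 2996, had mean net signals of 13.5 (yellow) and 16.0 (green) on replicate 1, 75.5 and 68.0 on replicate 2, and 1.37 and 0.78 on replicate 3. None of its spots passed the 2xSD test (0 of 6). Since 50 units were added to both channels before the ratio was taken, a net signal this small gives a log2 ratio near 0 whatever the transcript did, and on replicate 3 the values of JBW100E07 and JBW100H03 are of this kind.

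**Figure D1:**
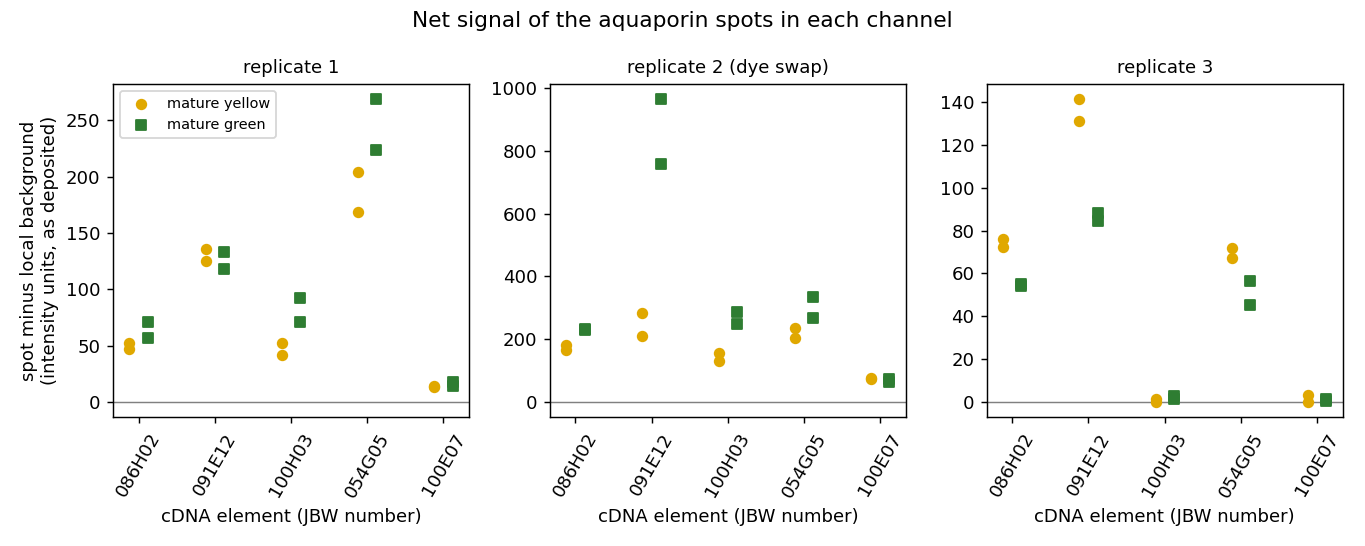
Net signal (spot minus local background, in intensity units as deposited) of every aquaporin spot in the mature yellow (circles) and mature green (squares) channel, in 1 panel per slide with its own scale. On the dye swap the green spots of JBW091E12, at 965 and 759, lie well above its yellow spots, and JBW100H03 and JBW100E07 lie near 0 on replicate 3.

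After background correction with an offset of 50 and loess normalization, no aquaporin contig was called changed between the stages. A call needed 1.5-fold or more and a Benjamini-Hochberg adjusted p under 0.05 from limma, and 10 of 7773 features met it (0.129% of those tested, and 0.0772% with a lower level in mature yellow fruits). Both plasma membrane contigs had lower means in mature yellow fruits, by about the same amount, and contig 2996 had a slightly higher mean. A mean below 0 was found for 46.8% of all features, and for 2 of the 3 aquaporin contigs. At an unadjusted p under 0.05 from limma, 1 aquaporin contig, 2337, was reached, against 8.95% of all features and 3.53% with a lower mean. The 3 contigs all lay under 1.5-fold in size, a limit that 5.24% of all features passed without regard to the test.

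Contig 2337, a PIP, had log2 ratios of mature yellow over mature green of -0.45, -0.38 and -0.07 on replicates 1, 2 and 3. It was lower in mature yellow fruits on every slide, which was true of 16.9% of the features measured on all 3 (18.3% were higher on all 3), and its value on replicate 3 was close to 0. The direction on replicate 3 depended on the processing, since all 3 of its elements were above 0 there before loess. The processed value that the authors deposited for that slide was 0.63 as a log2 ratio of yellow over green. That was below the median of 1.03 over 687 contigs of the same deposited column. The mean of contig 2337 was -0.30 ± 0.20 (SD, n = 3 slides), a fold of -1.23. A minus sign of the fold stands for lower in mature yellow fruits. Limma gave an unadjusted p of 0.0433 and an adjusted p of 0.541. The 95% interval of the fold ran from -1.50 to -1.01, without correction for the number of features.

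Contig 1411, the other PIP, had log2 ratios of -0.77, 0.03 and -0.14. It was lower on both slides with yellow fruit in Cy3 and at the level of green fruit on the dye swap. Its mean of -0.29 ± 0.42 (SD, n = 3 slides), a fold of -1.22, was within the spread between slides (limma's unadjusted p = 0.202, adjusted p = 0.722). The interval of the fold ran from -1.77 to 1.19. Replicate 1 decided the size of this mean, which was -0.052 without it (limma's adjusted p = 0.937).

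Contig 2996, the aquaporin of unstated type, had log2 ratios of -0.0081, 0.42 and 0.0027. The dye-swap slide alone departed from 0 by more than 0.0081. The mean of 0.14 ± 0.24 (SD, n = 3 slides), a fold of 1.10, was within the spread (limma's unadjusted p = 0.302, adjusted p = 0.802), and the interval of the fold ran from -1.14 to 1.39. Without replicate 2 the mean was -0.00271 (limma's adjusted p = 0.990), so neither direction was detectable.

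Within the whole array, the mean of contig 2337 stood at percentile 6.16 of the 7773 features and that of contig 1411 at 6.50. By slide, contig 2337 was at percentiles 5.51, 12.7 and 12.3, so its place in the lower part of the array was kept on each slide. Contig 1411 moved from 1.94 to 58.8 and 6.78. Contig 2996 had a mean at percentile 81.9, with 46.1, 89.9 and 50.8 by slide. The median log2 ratio of all features was 0.0075.

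**Figure D2:**
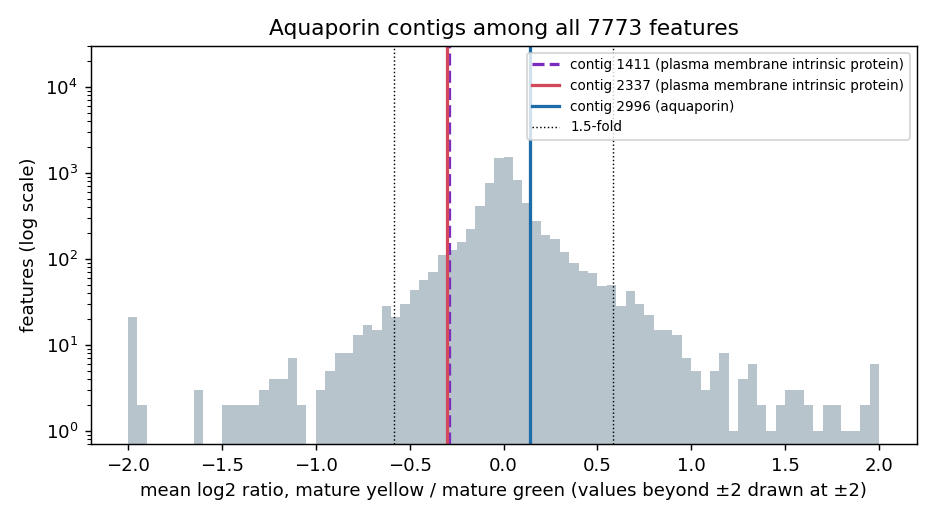
Histogram of the mean log2 ratio of mature yellow over mature green fruits for all 7773 features (log count axis, values beyond ±2 drawn at ±2), with the 3 aquaporin contigs as vertical lines and 1.5-fold dotted. Both plasma membrane contigs lie left of the main peak, at -0.30 and -0.29, and contig 2996 lies right of it, at 0.14, all inside 1.5-fold.

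The median of the 2 plasma membrane contigs was -0.61, -0.17 and -0.11 on replicates 1, 2 and 3, below 0 on each slide. The log2 differences from contig 2996 on the same slides, -0.60, -0.59 and -0.11, are given as a description with no test. They say little of the relation between the types, because the low net signals of contig 2996 on replicates 1 and 3 hold its ratio near 0 once 50 units are added. None of its spots passed the 2xSD test, and its type is not stated. On replicate 2 loess raised every aquaporin element by a similar step, from 0.46 to 0.51, so the difference there was little changed by loess.

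The 3 elements of contig 2337 were compared as repeat measurements of one transcript by different clones. JBW091E12 had log2 ratios of -0.36, -1.03 and -0.06 on replicates 1, 2 and 3. JBW086H02 had -0.38, 0.12 and -0.15, and JBW100H03 had -0.62, -0.22 and -0.01. On replicates 1 and 3 all 3 clones were lower in mature yellow fruits, and on the dye swap they spread from well below 0 to slightly above it. On replicate 3, however, all 3 were above 0 before loess, and JBW100H03 had next to no signal.

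The range between the clones was 0.26, 1.14 and 0.14 on replicates 1, 2 and 3. The range on replicate 3 includes JBW100H03, which had next to no signal there, so it says little of agreement between the clones. Among contigs with 3 measured elements, the median range on the same slides was 0.45, 0.53 and 0.26, so the clones of contig 2337 lay closer together than most on replicates 1 and 3 and farther apart on replicate 2 (percentile 78.4 of 104 contigs). Duplicate spots of one aquaporin element differed far less, by a median of 0.04 over 14 pairs and by 0.24 at most. The difference of JBW091E12 from the other clones on the dye swap is therefore larger than the difference between duplicate spots. Without JBW091E12 the contig's mean was -0.21 (limma's adjusted p = 0.666), without JBW086H02 -0.38 (0.566) and without JBW100H03 -0.31 (0.509).

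Taken as features of their own in a fit over 9275 elements, 0 of the 5 aquaporin elements were called by limma, where 222 of all elements were. An unadjusted p under 0.05 from limma was also reached by 0 of the 5, and by 1064 of all elements. The lowest of the 5, 0.107, was that of JBW091E12 (mean -0.48 ± 0.50, SD, n = 3 slides, limma's adjusted p = 0.541). JBW100H03 followed with -0.29 ± 0.31, and JBW086H02 had -0.14 ± 0.25.

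**Figure D3:**
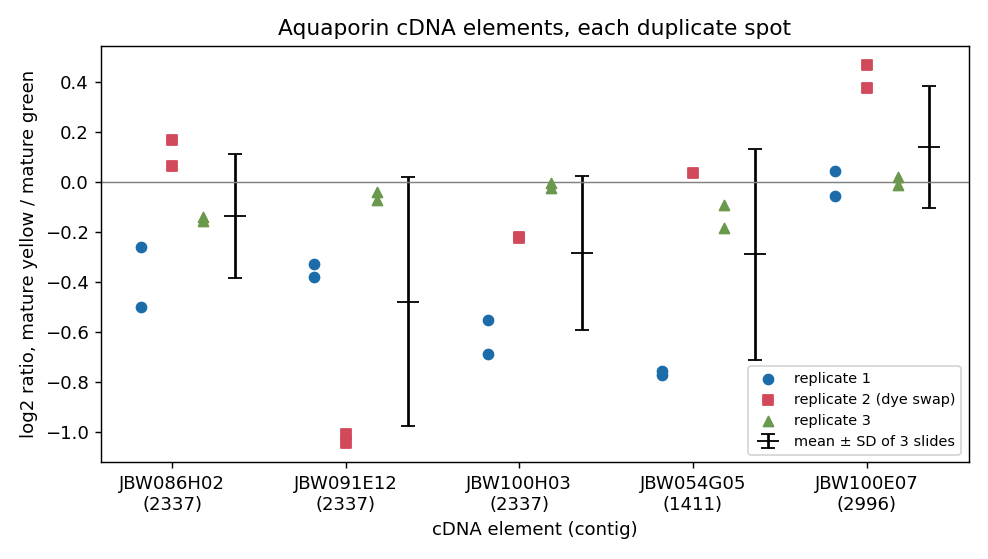
Log2 ratio of mature yellow over mature green fruits for each duplicate spot of the 5 aquaporin elements, by slide, with the mean ± SD of 3 slides as a black bar. Duplicate spots lie close together, while the slides spread more widely, as with JBW091E12 at -1.03 and JBW100E07 at 0.42 on the dye swap.

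The size of the dye correction was compared with the ratios it leaves, since the dye swap turns the sign of a dye effect. Loess lowered the yellow-over-green ratio of aquaporin elements on replicates 1 and 3 and raised it on replicate 2. The largest steps were -0.50 for JBW054G05 on replicate 1 and 0.51 for JBW091E12 on replicate 2. Before loess, JBW091E12 had log2 ratios of 0.10, -1.54 and 0.35, and JBW054G05 had -0.27, -0.43 and 0.19. JBW086H02 had -0.075, -0.34 and 0.19 before loess, JBW100H03 had -0.29, -0.68 and 0.14, and JBW100E07 had 0.10, -0.040 and 0.15. All 5 elements were thus above 0 on replicate 3 before loess, and 4 of them, both plasma membrane contigs included, were below 0 there after it. Loess also turned the sign of JBW091E12 and JBW100E07 on replicate 1 and of JBW054G05, JBW086H02 and JBW100E07 on replicate 2. The 0.42 of JBW100E07 on the dye swap, the value on which the mean of contig 2996 rests, was -0.040 before it, so its distance from 0 equals the loess step almost in full. The ratios of JBW091E12 and JBW100H03 on the dye swap, and those of JBW054G05, JBW086H02 and JBW100H03 on replicate 1, were below 0 before and after.

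In a fit with a dye term, which weighs both dye orientations equally, contig 2337 had a mean of -0.32 (limma's adjusted p = 0.213), contig 1411 one of -0.21 (0.562) and contig 2996 one of 0.21 (0.154). With the dye term and no loess at all, an alternative added once the values were known, the means were -0.39 (limma's adjusted p = 0.0882), -0.24 (0.314) and 0.04 (0.833). Under neither was an aquaporin contig called.

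**Figure D4:**
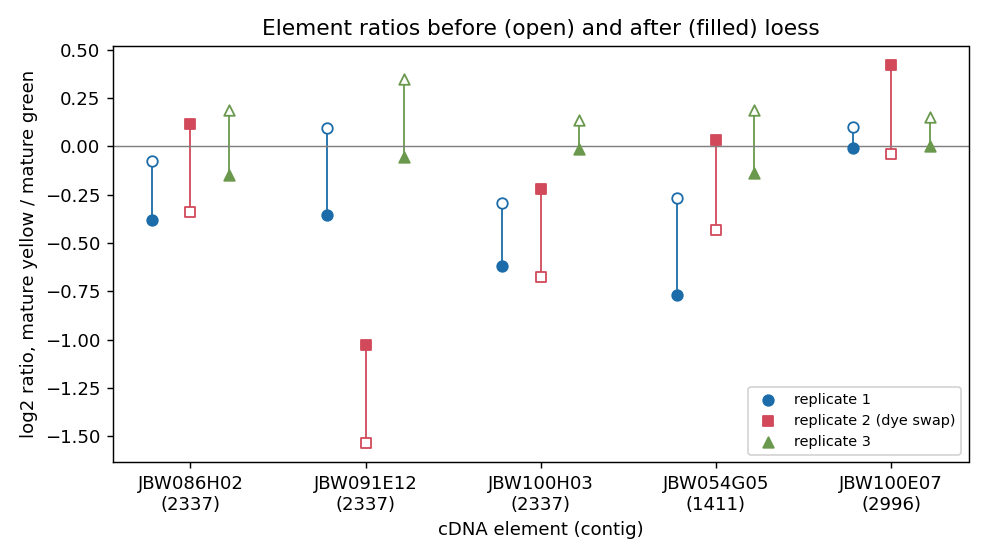
Log2 ratio of mature yellow over mature green fruits for the 5 aquaporin elements on each slide, before loess (open symbols) and after it (filled symbols). Loess moved the ratios down on replicates 1 and 3 and up on the dye swap, by 0.51 for JBW091E12 there.

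A pair of elements described as plasma membrane integral protein (contig 192) lay outside the wording that chose the members, and the files do not say whether they encode an aquaporin. Their contig, added after the values were seen, had log2 ratios of -0.27, -0.14 and -0.11. It was lower on all 3 slides, as were 16.9% of the features measured on all 3. Its mean was -0.17 ± 0.087 (SD, n = 3 slides), with an adjusted p of 0.566 from limma.

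Proton pumps and other carriers of both membranes were measured on the same slides. Pumps of the vacuole and the plasma membrane set up the proton gradients that drive the uptake of sugars and ions, which water then follows through aquaporins. Limma called 0 features in each of these lists. The subunits of the vacuolar H+-ATPase (V-ATPase) made up 8 features, of which 6 had means above 0 and 2 below it. Their median log2 ratio was 0.12, against 0.0075 for all features. An unadjusted p under 0.05 from limma was reached by 2 of them, both with higher means, against 8.95% of all features in either direction. The 2 below 0 were contig 1180, subunit H, with log2 ratios of 0.36, -1.26 and 0.08 and a mean of -0.28 ± 0.87 (SD, n = 3 slides), and contig 1100, subunit d, with a mean of -0.09 ± 0.33. Contig 3232, subunit E, had log2 ratios of 1.01, 0.63 and 0.41, a mean of 0.68 ± 0.30 (SD, n = 3 slides) and an adjusted p of 0.346 from limma. Contig 15, subunit G, had 0.11, 0.74 and 0.45, with 0.43 ± 0.31 and an adjusted p of 0.541. The keyword for pyrophosphatase added 2 features. Contig 2605, described as a soluble enzyme and so not a vacuolar pump, was at -0.13. Contig 1940, described as related to inorganic pyrophosphatase with no location stated, was at 0.09. The planned list of vacuolar proton pumps, with these 2 included, held 10 features, 7 above 0 and 3 below it. Its median log2 ratio was 0.07, lower than that of the V-ATPase subunits alone.

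The plasma membrane H+-ATPase (contig 1724), the pump of the membrane where PIPs reside, had log2 ratios of -0.24, -0.19 and -0.03. It was lower on all 3 slides, as were contig 2337 and 16.9% of the features measured on all 3. Its mean was -0.15 ± 0.11 (SD, n = 3 slides, limma's adjusted p = 0.591). The 4 sugar carriers lay between -0.02 and 0.11, and 0 had an unadjusted p under 0.05 from limma.

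Of the channels, the potassium channel contig 2383 was at 0.01. The voltage-dependent anion channels, pores of the outer mitochondrial membrane, gave 3 features with means above 0, of which 1 was described as a nematode sequence. Contigs 468 and 1212 had means of 0.37 ± 0.23 and 0.30 ± 0.18 (SD, n = 3 slides), with adjusted p-values of 0.511 and 0.509 from limma. Each was higher on all 3 slides, as were 18.3% of the features measured on all 3.

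The features whose pattern over the 3 slides lay nearest to that of contig 2337 were found by the Euclidean distance of the log2 ratios among 1368 described features. They were contig 17, a vesicle-associated membrane protein (distance 0.087), contig 1449, a putative MSP1 protein (0.094), and contig 73, a protein translation factor (0.095). A likeness over 3 slides is a description only, and 9 features lay within a distance of 0.2.

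**Figure D5:**
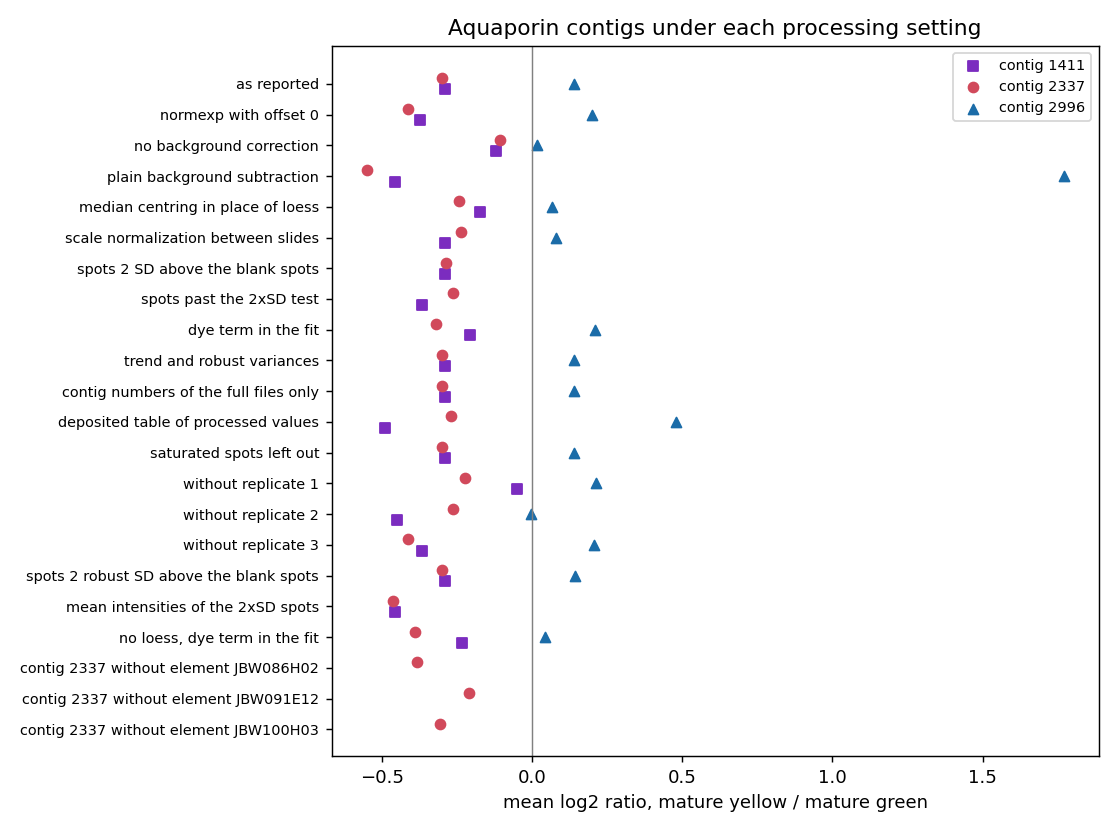
Mean log2 ratio of mature yellow over mature green fruits for the 3 aquaporin contigs under each processing setting, 1 row per setting, missing where a contig had no value. Contigs 2337 and 1411 stay below 0 in every row, between -0.55 and -0.052, and contig 2996 stays above 0 except without replicate 2.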

How the data were processed

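The authors deposited scanner intensity values for every spot (both channels and the local background, neither corrected nor normalized), median values for replicates 1 and 2 and mean values for replicate 3. A second set of deposited files held mean intensity values of only those spots that passed the 2xSD test of the authors, with contig numbers for newly sequenced clones. The authors also deposited 2 kinds of score, the spot ratio of the scanner software, not used for any result, and a signed fold per contig made in GeneSpring with LOWESS, used as an alternative. The methods give these folds as Cy3 over Cy5, and the dye-swap column correlated with yellow-over-green ratios at r = -0.86, against 0.79 and 0.81 on replicates 1 and 3, so it was turned.

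In R 4.3.3 with limma 3.58.1, spots marked abnormal were left out. Normexp with an offset of 50 corrected the background, and loess, in which blanks and controls had no weight, removed the dye trend of each slide. All ratios run yellow over green. Duplicate spots and the elements of a contig were averaged. Features with values on at least 2 slides were fitted with an intercept, with p-values adjusted by Benjamini-Hochberg over the whole array. The prior of the variance had 1.65 degrees of freedom. A call needed 1.5-fold and an adjusted p under 0.05. The procedure was tested on simulated slides. Figures were drawn with matplotlib 3.10.9.

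The members and lists were chosen with earlier results of these data known. Every aquaporin contig and element is named, and from each transporter list the members with an unadjusted p under 0.05 and one direction on all slides. Alternatives added after seeing the data were a robust blank limit, 2xSD mean intensities, a dye term without loess and the omission of single elements.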

Additional observations from a re-analysis of the deposited data

How the results depend on the processing

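Both plasma membrane contigs kept a mean below 0 and stayed uncalled by limma under every alternative that gave a value, 21 for contig 2337 (adjusted p from 0.0882 to 0.911) and 18 for contig 1411 (0.314 to 0.937). Not every alternative could move a mean. With trend and robust variances, which alter only the test, the means stayed at -0.30 (2337) and -0.29 (1411). They also stayed there without saturated spots and with newly numbered clones as separate features, since no aquaporin element was affected. The size of both means moved with the background correction. Contig 2337 was at -0.41 with an offset of 0, -0.55 with plain subtraction and -0.11 without correction, and contig 1411 at -0.37, -0.46 and -0.12. Leaving out each replicate gave -0.41 to -0.23 for contig 2337, -0.45 to -0.052 for contig 1411 and -0.00271 to 0.21 for contig 2996. Contig 2996 stayed uncalled under its 15 alternatives (adjusted p from 0.154 to 0.999) and turned below 0 in 1, without replicate 2. With plain subtraction it was at 1.77, where a single spot with net signals of 3.00 and 0.13 gave its value on replicate 3. Over spots past the 2xSD test, and over spots 2 SD above the blanks, it had no value. In the deposited table the 3 contigs were at -0.27 (2337), -0.49 (1411) and 0.48 (2996), the last 2 from replicates 1 and 2 only.

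The count of features called over the array, 10, moved to 34 with an offset of 0, 18 without background correction, 59 with plain subtraction, 6 with median centring, 92 over spots 2 SD above the blanks, 110 over those past the 2xSD test, 68 with a dye term, 28 with trend and robust variances, 222 with each element as a feature, 227 with newly numbered clones as separate features and 136 in the deposited table. It was 0 after scale normalization between slides, with 749 at limma's unadjusted p under 0.05. Alternatives added after the data were seen gave 18 (robust limit), 115 (mean intensities) and 367 (dye term without loess). An ordinary test of the 3 log2 ratios at the p limit of 0.1 of the methods gave 212 unadjusted and 0 after adjustment, with 338 at an unadjusted p under 0.05. Leaving out each replicate gave 0 to 5, with 362, 917 and 721 at limma's unadjusted p under 0.05 without replicates 1, 2 and 3. Median log2 ratios of all features were 0.16 over the 2xSD spots and 0.17 in the deposited table. Higher means made up 40% of the calls, but 16.7% with median centring and 75% in the deposited table. Each log2 ratio pairs both stages on 1 slide, so every fit was already paired, and the slides form a single group with no further block.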
